A study of Mus musculus with 6 samples.

Results

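The 60 genes described here encode the machinery that separates chromosomes at cell division. They cover cyclin-dependent kinase 1 with its cyclins and the other mitotic kinases, the kinetochore with its checkpoint, spindle kinesins, spindle-associated proteins, partners of the anaphase-promoting complex (APC/C), cytokinesis proteins, chromosome structure proteins and the transcription factor FOXM1. They were chosen by gene symbol from a deposited table of 54884 entries, and all 60 were found. All 60 also passed the minimum mean level of 1 FPKM (fragments per kilobase of transcript, scaled to the mapped fragments of a library) that 13702 entries met. Their mean levels ran from 2.76 FPKM for Plk4 to 64.9 FPKM for Ube2c, with a median of 20.5 FPKM.

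The treated cells were mouse neural stem cells carrying a lentivirus with an siRNA against circHIPK2, a circular RNA made from the Hipk2 gene, in 3 libraries. The control cells carried a lentivirus with the circCon siRNA, also in 3 libraries. In both groups the cells came from the hippocampus of C57BL/6 embryos at day 14 and were used between passages 3 and 8. Poly(A)-selected RNA was sequenced, and since no label says that libraries of a group were separate cultures, the spread behind each p-value may be technical.

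Mitotic genes are transcribed late in the cell cycle, are low in cells that have left it, and serve in neural stem cell cultures as a readout of dividing cells. CDK1 bound to cyclin B drives entry into mitosis. The kinetochore fixes chromosomes to spindle microtubules while its checkpoint holds anaphase back, and the APC/C with CDC20 then marks cyclin B and securin for destruction. In RNA from a whole culture, fewer dividing cells and less RNA of these genes per cell cannot be told apart.

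All 60 genes had a log2 fold change below 0 with the circHIPK2 siRNA, against 77.1% of all entries tested. The log2 fold changes, on the log2(FPKM + 1) scale, ran from -0.65 for Spc24 to -0.09 for Kif23, with a median of -0.36, and 9.28% of all entries lay below that median. The ratio of mean FPKM, siRNA over control, ran from 0.591 to 0.938 with a median of 0.764. None of the 60 passed limma's test at an adjusted p below 0.05 (0 lower and 0 higher), where the background was 0.139% of entries called lower, 0.117% called higher and 0.255% in either direction. The lowest adjusted p was 0.0664, for Kif2c, and the highest was 0.701, for Kif23. At an unadjusted p below 0.05, 46 of the 60 lay lower and 0 higher, against 15.5% of all entries lower and 1.83% higher. A limma fit that weights libraries by how closely they follow the fitted model called 21 of the 60 lower. Its weights were 2.5, 0.543 and 0.507 for siRNA libraries 1 to 3, so siRNA library 1 counted most. Those of control libraries 1 to 3 were 1.56, 0.739 and 1.26. Of all 13702 entries the weighted fit called 265 lower and 55 higher, 320 in all. In 46 of the 60 genes every siRNA library lay below every control library, here called entirely lower, against 22.1% of all entries tested. In 0 of the 60 was the order reversed, against 2.65% of all entries, and in the other 14 the groups overlapped. With 3 libraries a group the smallest two-sided p of an exact permutation test is 0.1, so none is given gene by gene.

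Most of the table was lower with the siRNA, and the mitotic genes are read against that. The median log2 fold change of all entries was -0.12, and the mitotic median relative to it was -0.24. Of the 60 genes 59 lay below the median of all entries, the exception being Kif23. A set of 9 entries that overlap the ribosomal RNA locus or track with it took 11.5%, 3.24% and 19.9% of the FPKM in siRNA libraries 1 to 3, against 0.580%, 0.426% and 0.321% in control libraries 1 to 3. After median-of-ratios scaling, which centres all entries, the mitotic median was -0.23, 59 of the 60 were below 0, against 50.3% of all entries, and 35 of the 60 lay entirely lower, against 10.1% of all entries. After the 9 entries were removed and the columns rescaled, the mitotic median was -0.17 while that of all entries was 0.06, and 56 of the 60 were below 0, against 35.8% of all entries. At an unadjusted p below 0.05 in limma's test, 35 of the 60 lay lower with median-of-ratios scaling, against 6.84% of all entries. With the 9 entries removed 6 of the 60 did, against 2.87% of all entries. On that last scale 9 of the 60 lay entirely lower, against 4.29% of all entries. These were Ccna2, Cdc25b, Ttk, Cenpe, Spc24, Kif11, Kif2c, Nusap1 and Racgap1, named after their values were seen.

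**Figure D1:**
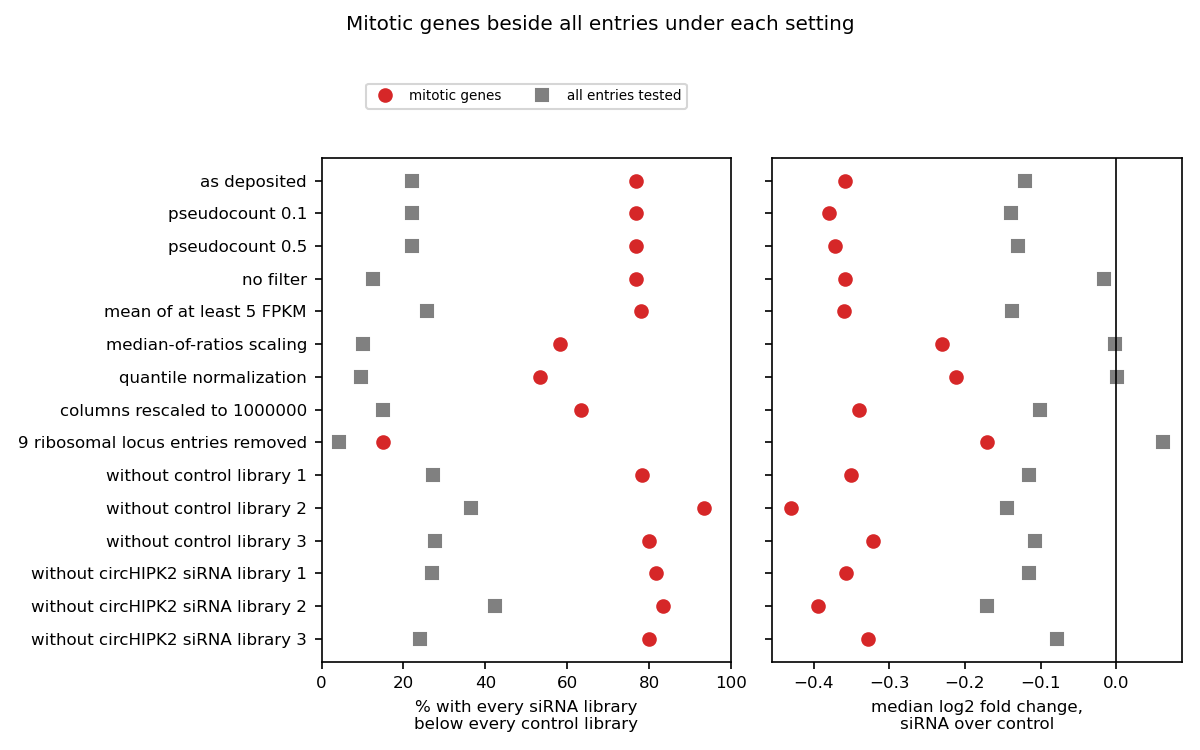
Left, percentage of the mitotic genes (red circles) and of all entries tested (grey squares) in which every circHIPK2 siRNA library lay below every control library, under each scaling, filter and left-out library; right, the median log2 fold change of the same sets, siRNA over control. The red circles lie above the grey squares in percentage and below them in median under each setting drawn, with the closest pair of percentages after removal of the 9 ribosomal locus entries (9 of 60 genes against 4.29%).

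Ranks inside a library do not depend on its scaling. Among all entries tested, the mitotic genes had median percentiles of 74.1, 72.8 and 73.4 in siRNA libraries 1 to 3, against 77.5, 77.0 and 78.9 in control libraries 1 to 3. The siRNA libraries lay entirely below the controls on this rank. The summed FPKM of the 60 genes was 1301, 1375 and 1267 in siRNA libraries 1 to 3, against 1765, 1524 and 1804 in control libraries 1 to 3. Its mean was 1314 ± 55.3 FPKM with the siRNA and 1698 ± 151 FPKM in the controls (SD, n = 3 each). As a share of all FPKM outside the 9 ribosomal entries, the sum was 0.317%, 0.311% and 0.348% in siRNA libraries 1 to 3, against 0.377%, 0.317% and 0.399% in control libraries 1 to 3. On that share siRNA library 3 lay above control library 2, so the groups overlapped.

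Control library 2 was the control nearest to the siRNA libraries. It held the lowest control value in 51 of the 60 genes, whereas control library 3 held the highest control value in 39. Among the siRNA libraries, on FPKM as deposited, library 3 had the lowest siRNA value in 33 genes and library 2 the highest in 42. The summed share outside the ribosomal entries had the opposite order, with library 3 the highest of the siRNA libraries (0.348%) and library 2 the lowest (0.311%). In 10 of the 14 genes whose groups overlapped, the lowest control was library 2, a share no higher than the 51 of all 60. Without control library 2, 56 of the 60 lay entirely lower, against 36.5% of all entries. Leaving out any library can only keep or raise such a count, so the rise itself is no result.

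**Figure D2:**
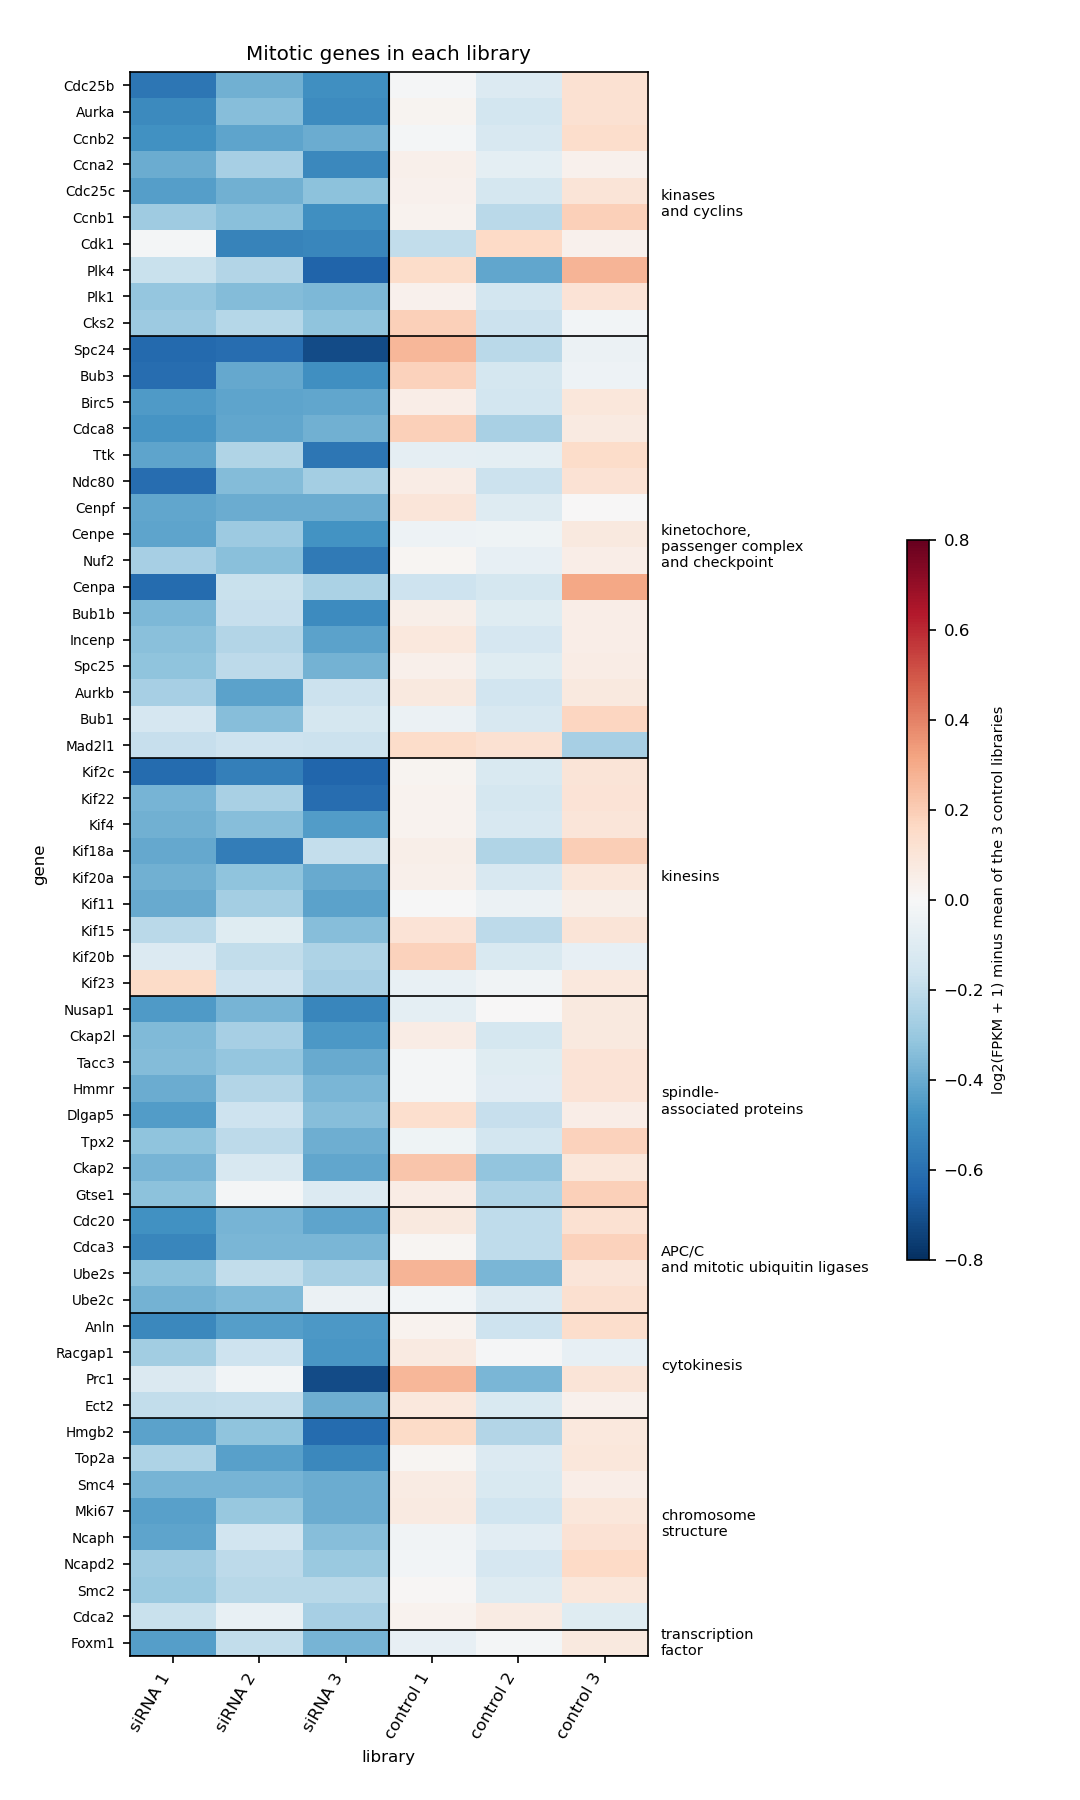
Level of each of the 60 genes (rows, by role) in each library (columns, siRNA libraries left), as log2(FPKM + 1) minus the mean of the 3 control libraries; blue is below and red above that mean. The siRNA columns are blue in nearly all rows, and control library 2 is the bluest control in most rows, holding the lowest control value in 51 of 60.

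**Figure D3:**
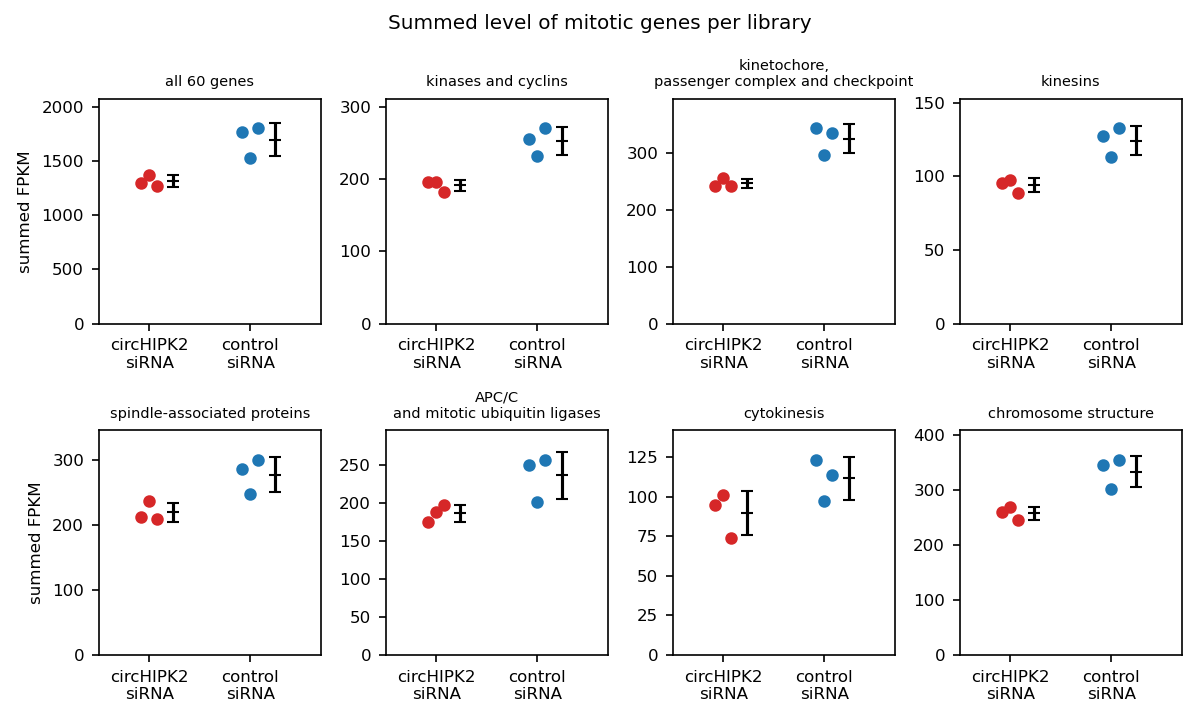
Summed FPKM of all 60 genes and of each role group per library (points), with mean and SD (black bars, n = 3), circHIPK2 siRNA left and control right. The siRNA libraries lie below the controls for the total (1267 to 1375 against 1524 to 1804), while for the cytokinesis genes siRNA library 2 (100.8) lies above control library 2 (97.2).

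The promoters of many mitotic genes share a pair of short elements, the cell cycle genes homology region (CHR), which binds the MuvB complex, and the CCAAT box, which binds NF-Y. RefSeq promoters (build GRCm38.p6, 250 bases before to 50 after a start site) were found for 49 of the 60 genes, and the first listed window of each gene was used. A CHR element, TTTGAA or TTCGAA on either strand, was present in 37 of the 49, or 75.5%, against 19.4% of 27025 promoters in all and 12.7% of the promoters of the other genes tested. CCAAT was present on either strand in 71.4% of the mitotic promoters, against 37.9% of all, and at least 2 times in 51.0%, against 12.2% of all. CHR and CCAAT occurred together in 63.3% of the mitotic promoters and in 7.70% of all. Matches that share a base were counted for each motif. Of the 49 windows 33 had a CHR element starting no more than 100 bases upstream of the start site, or downstream of it. That is 67.3%, against 8.68% of all promoters and 4.59% of those of the other genes tested. A match describes the letters and says nothing of binding in these cells.

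The promoters shown are those of the gene with the lowest log2 fold change among those with a RefSeq promoter, in each role group of 8 or more genes. In the kinetochore group this is Bub3, since Spc24, which lay lower, was not matched. That of Cdc20 was added after its values were seen, because it holds a CHR together with CCAAT boxes close to the start site. Bases are given 5′ to 3′ on the gene's strand, with CHR and CCAAT matches of either strand in capitals.
Cdc25b: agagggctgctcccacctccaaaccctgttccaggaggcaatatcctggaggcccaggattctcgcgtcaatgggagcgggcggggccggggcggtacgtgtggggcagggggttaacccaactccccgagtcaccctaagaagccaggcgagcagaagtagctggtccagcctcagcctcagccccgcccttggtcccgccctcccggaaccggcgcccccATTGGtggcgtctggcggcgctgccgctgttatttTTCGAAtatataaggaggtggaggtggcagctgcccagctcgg
Bub3: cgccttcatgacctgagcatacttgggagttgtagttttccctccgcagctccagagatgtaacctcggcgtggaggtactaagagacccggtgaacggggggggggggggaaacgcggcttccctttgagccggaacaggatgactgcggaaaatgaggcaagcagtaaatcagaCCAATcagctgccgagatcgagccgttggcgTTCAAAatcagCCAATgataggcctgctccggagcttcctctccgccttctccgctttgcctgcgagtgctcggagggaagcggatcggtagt
Kif2c: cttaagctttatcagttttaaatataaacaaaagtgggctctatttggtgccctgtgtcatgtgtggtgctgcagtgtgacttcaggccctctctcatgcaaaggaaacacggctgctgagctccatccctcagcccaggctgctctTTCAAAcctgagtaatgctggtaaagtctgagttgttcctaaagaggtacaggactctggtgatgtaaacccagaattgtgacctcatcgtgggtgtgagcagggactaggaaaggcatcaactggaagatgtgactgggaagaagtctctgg
Nusap1: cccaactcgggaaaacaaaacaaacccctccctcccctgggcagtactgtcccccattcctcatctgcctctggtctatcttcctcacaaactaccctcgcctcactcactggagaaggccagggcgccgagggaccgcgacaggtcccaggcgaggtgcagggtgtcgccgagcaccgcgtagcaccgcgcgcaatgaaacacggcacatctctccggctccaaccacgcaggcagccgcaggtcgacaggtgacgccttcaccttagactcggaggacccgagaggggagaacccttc
Hmgb2: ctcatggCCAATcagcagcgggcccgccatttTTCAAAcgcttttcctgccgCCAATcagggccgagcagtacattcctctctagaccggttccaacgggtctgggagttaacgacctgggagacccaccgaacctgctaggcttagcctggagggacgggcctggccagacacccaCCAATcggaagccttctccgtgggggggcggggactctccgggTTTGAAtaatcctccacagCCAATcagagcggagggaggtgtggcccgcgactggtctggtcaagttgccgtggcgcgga
Cdc20: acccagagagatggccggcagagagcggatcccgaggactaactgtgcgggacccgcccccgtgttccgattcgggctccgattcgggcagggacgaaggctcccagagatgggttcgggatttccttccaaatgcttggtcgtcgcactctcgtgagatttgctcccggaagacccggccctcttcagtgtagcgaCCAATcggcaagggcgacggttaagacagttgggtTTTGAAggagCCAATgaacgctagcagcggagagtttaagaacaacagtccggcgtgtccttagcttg
The windows are chr2:131186698-131186997 on the plus strand for Cdc25b, chr7:131560120-131560419 on the plus strand for Bub3 and chr4:117178723-117179022 on the minus strand for Kif2c. The others are chr2:119618048-119618347 on the plus strand for Nusap1, chr8:57511593-57511892 on the plus strand for Hmgb2 and chr4:118437294-118437593 on the minus strand for Cdc20. With the start site as position 0, the CHR of Cdc25b starts at 7, that of Bub3 at -43, that of Kif2c at -103 and that of Cdc20 at -18, and Hmgb2 has 2, at -218 and -30. The Nusap1 window holds neither motif. The RefSeq start of Kif2c lies 3867 bases downstream of the gene's 5′ end in GENCODE M21, so its window lies inside the gene as annotated there. Of the 49 start sites 40 lay within 100 bases of the GENCODE 5′ end.

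The 37 mitotic genes with a CHR had a median log2 fold change of -0.36, and the 12 without had the same median of -0.36. Split by CHR and CCAAT together, the mitotic medians were again -0.36, for 31 with the pair and 18 without. Among the other genes tested, the median was -0.13 for 1154 with a CHR and -0.12 for the 7904 without. It was -0.14 for 500 with CHR and CCAAT together and -0.12 for the 8558 without the pair.

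**Figure D4:**
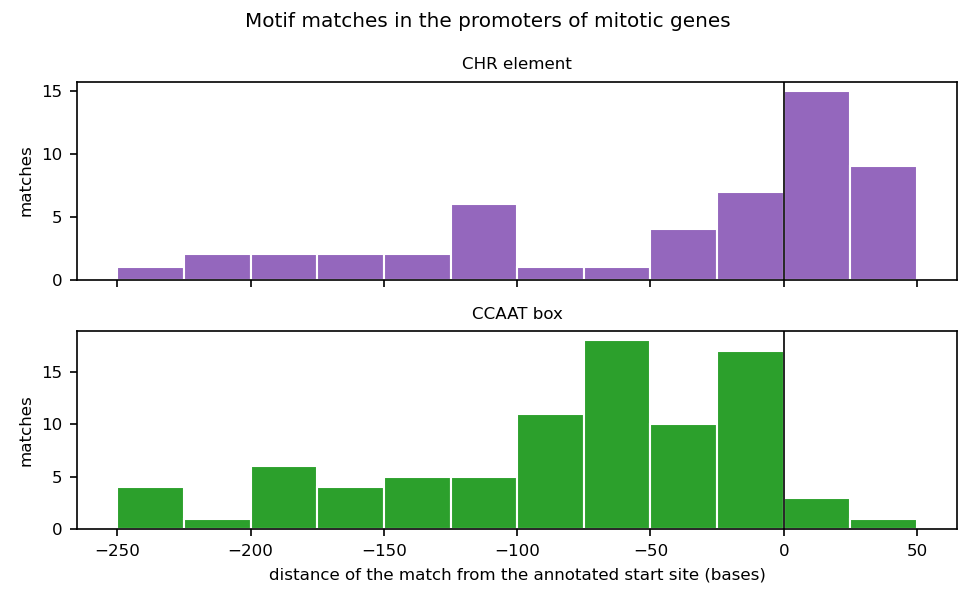
Number of matches (vertical axes) of the CHR element (top) and the CCAAT box (bottom) by distance in bases from the annotated start site in the 49 mitotic promoters; the vertical line is the start site. CHR matches are most frequent just downstream of the start site, and CCAAT matches in the 100 bases before it.

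Kinases and cyclins, which switch mitosis on, had a median log2 fold change of -0.38 over 10 genes. Of the 10, 8 lay entirely lower, against 22.1% of all entries, and 2 after removal of the ribosomal entries, against 4.29%. Ccna2, the cyclin A2 gene and the most abundant of the group, was measured at 41.2, 45.1 and 37.8 FPKM in siRNA libraries 1 to 3, against 56.1, 51.6 and 55.9 FPKM in control libraries 1 to 3. The siRNA libraries all lay below the controls (log2 fold change -0.39, SE 0.10, adjusted p = 0.167). Cdc25b, a phosphatase that activates CDK1, had the lowest fold change of the group. It had 10.0, 11.6 and 10.7 FPKM with the siRNA, against 15.3, 14.2 and 16.9 FPKM in the controls (log2 fold change -0.48, SE 0.10, adjusted p = 0.131). Cks2, a small CDK-binding subunit, had the fold change nearest to 0, with 11.3, 11.9 and 11.1 FPKM with the siRNA, against 16.2, 12.4 and 13.9 FPKM in the controls (log2 fold change -0.28, SE 0.11, adjusted p = 0.259).

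For Cdk1 itself the groups overlapped. It was at 21.5, 14.8 and 14.9 FPKM in siRNA libraries 1 to 3, against 18.9, 24.5 and 22.3 FPKM in control libraries 1 to 3, so siRNA library 1 stood among the controls. Plk1, a kinase of spindle assembly, averaged 38.9 ± 0.677 FPKM with the siRNA and 49.6 ± 4.52 FPKM in the controls and lay entirely lower. Aurka, the spindle pole kinase Aurora A, lay entirely lower too, at 20.1 ± 1.42 FPKM with the siRNA and 27.9 ± 2.71 FPKM in the controls. Plk4, which starts centriole duplication and was the least abundant of the 60, overlapped, with 2.28 ± 0.544 FPKM with the siRNA and 3.23 ± 0.997 FPKM in the controls (SD, n = 3 each).

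Ccnb1, the cyclin B1 gene, had 25.9, 25.1 and 22.4 FPKM in siRNA libraries 1 to 3, against 32.5, 27.3 and 36.4 FPKM in control libraries 1 to 3. The groups did not overlap, and the log2 fold change was -0.37 (SE 0.12, adjusted p = 0.212). Ccnb2, the cyclin B2 gene, had 16.5, 17.3 and 17.6 FPKM with the siRNA, against 23.3, 21.4 and 26.0 FPKM in the controls, again with no overlap. The pseudogene entry Ccnb1-ps is 99.2% identical to a Ccnb1 transcript over its full 1287 bases, so reads of the gene and its copy may have been split between them. Ccnb1-ps had 14.8, 13.7 and 13.9 FPKM with the siRNA, against 22.6, 21.0 and 23.3 FPKM in the controls. It fell by 0.62 on the log2 scale (SE 0.09) and passed limma's test (adjusted p = 0.0405). The call was lost in each fit that left out 1 library (adjusted p from 0.0969 to 0.195). It was also lost under median-of-ratios scaling (adjusted p = 0.0916) and after removal of the ribosomal entries (adjusted p = 0.239). Ccnb2-ps aligned to Ccnb2 over 753 of its 2296 bases at 87.7% identity, and had 4.40, 5.24 and 4.61 FPKM with the siRNA, against 2.63, 5.29 and 4.04 FPKM in the controls.

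The kinetochore, passenger complex and checkpoint genes had the lowest group median, -0.39 over 16 genes. Of the 16, 15 lay entirely lower, against 22.1% of all entries, and 3 after removal of the ribosomal entries, against 4.29%. Spc24, a subunit of the NDC80 complex that grips microtubules, had the lowest fold change of all 60 genes. It was at 5.40, 5.46 and 4.99 FPKM in siRNA libraries 1 to 3, against 10.8, 7.49 and 8.51 FPKM in control libraries 1 to 3 (log2 fold change -0.65, SE 0.13, adjusted p = 0.128). The ratio of mean FPKM was 0.591 for Spc24, beside 0.730 for Ndc80, 0.756 for Nuf2 and 0.799 for Spc25, the other subunits of the complex. The difference between subunits was not tested. Bub3, a checkpoint protein and the most abundant of the group, had 26.1, 30.1 and 28.4 FPKM with the siRNA, against 45.9, 36.5 and 39.1 FPKM in the controls (log2 fold change -0.50, SE 0.11, adjusted p = 0.139).

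Mad2l1, the MAD2 checkpoint protein that inhibits CDC20, was the single gene of the group whose libraries overlapped. It had 16.2, 16.5 and 16.4 FPKM with the siRNA, against 20.6, 20.3 and 15.3 FPKM in the controls (log2 fold change -0.17, SE 0.12, adjusted p = 0.465), and its sign turned after removal of the ribosomal entries (0.02). The siRNA libraries were close together, and control library 3 lay below them. The checkpoint kinase genes Bub1, Bub1b and Ttk had log2 fold changes of -0.20, -0.35 and -0.41.

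In the chromosomal passenger complex, which corrects faulty attachments, all 4 genes lay entirely lower as deposited, against 22.1% of all entries. After removal of the ribosomal entries the groups overlapped for each of the 4. The kinase gene Aurkb averaged 20.0 ± 1.86 FPKM with the siRNA and 24.6 ± 2.30 FPKM in the controls. Birc5, which codes for survivin, averaged 23.9 ± 0.315 FPKM with the siRNA and 32.6 ± 2.88 FPKM in the controls. The scaffold gene Incenp averaged 29.6 ± 2.06 FPKM with the siRNA and 37.6 ± 3.12 FPKM in the controls, and Cdca8, which codes for borealin, 23.0 ± 0.737 FPKM with the siRNA and 31.4 ± 5.07 FPKM in the controls (SD, n = 3 each). Among centromere proteins, the kinesin Cenpe and the coiled-coil protein Cenpf had ratios of 0.739 and 0.736. Cenpa, the histone H3 variant that marks the centromere, was spread more widely, at 7.84, 11.0 and 10.4 FPKM with the siRNA, against 11.1, 11.3 and 15.8 FPKM in the controls.

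The kinesins, motors that build and lengthen the spindle, had the widest range of the role groups. They ran from -0.60 to -0.09 on the log2 scale over 9 genes. Of the 9, 5 lay entirely lower, against 22.1% of all entries, and 2 after removal of the ribosomal entries, against 4.29%. Kif2c, which takes microtubules apart at centromeres, had 14.1, 14.9 and 14.0 FPKM in siRNA libraries 1 to 3, against 22.5, 20.4 and 23.9 FPKM in control libraries 1 to 3. Its means of 14.3 ± 0.48 FPKM with the siRNA and 22.2 ± 1.77 FPKM in the controls lay further apart than the spread (SD, n = 3 each), and its log2 fold change of -0.60 (SE 0.10, adjusted p = 0.0664) did not pass the test. It also lay entirely lower under median-of-ratios scaling, at -0.47, and after removal of the ribosomal entries, at -0.42. Kif22, a chromosome-arm kinesin and the most abundant of the group, had 17.5, 19.1 and 14.8 FPKM with the siRNA, against 23.5, 20.8 and 25.0 FPKM in the controls (log2 fold change -0.41, SE 0.12, adjusted p = 0.191).

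Kif23, the centralspindlin motor of cytokinesis, had 10.9, 8.50 and 7.87 FPKM with the siRNA, against 9.26, 9.48 and 10.3 FPKM in the controls (log2 fold change -0.09, SE 0.12, adjusted p = 0.701). Of the 60 genes it was the 1 whose highest value lay in an siRNA library, and its sign turned under median-of-ratios scaling (0.03) and after removal of the ribosomal entries (0.10). Kif11, the motor Eg5 that separates spindle poles, had a ratio of 0.762 and lay entirely lower, and Kif15, which can act beside it, had a ratio of 0.839 with overlapping libraries. Kif18a and Kif20b overlapped as well, while Kif4 and Kif20a lay entirely lower.

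**Figure D5:**
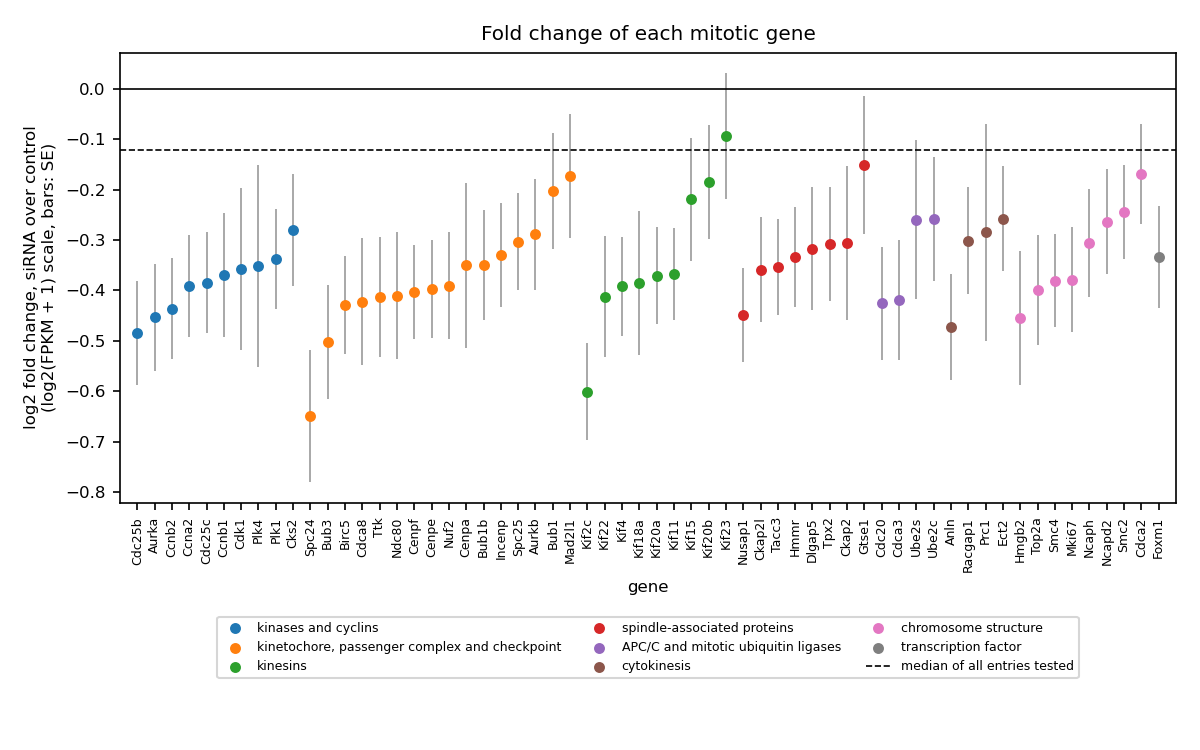
Log2 fold change of each gene, circHIPK2 siRNA over control, on the log2(FPKM + 1) scale with its SE, coloured by role and sorted within each role; the dashed line is the median of all entries tested (-0.12). Every point lies below 0 on the values as deposited, and Kif23 (-0.09) is the single point above the dashed line.

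Spindle-associated proteins, which nucleate and bundle microtubules, had a median log2 fold change of -0.33 over 8 genes. Of the 8, 5 lay entirely lower, against 22.1% of all entries, and 1 after removal of the ribosomal entries, against 4.29%. Nusap1, which links microtubules to chromosomes, had 24.6, 26.1 and 23.4 FPKM in siRNA libraries 1 to 3, against 32.3, 34.1 and 36.0 FPKM in control libraries 1 to 3 (log2 fold change -0.45, SE 0.09, adjusted p = 0.128). Control library 2 was not the lowest control for this gene, and the groups stayed apart after removal of the ribosomal entries, at -0.25. Ckap2, a microtubule-stabilising protein and the most abundant of the group, had 40.7, 48.5 and 39.6 FPKM with the siRNA, against 62.1, 42.5 and 56.7 FPKM in the controls. Here siRNA library 2 lay above control library 2 (log2 fold change -0.31, SE 0.15, adjusted p = 0.333).

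Gtse1, a microtubule-tip protein that also restrains p53, overlapped as well, with 20.9, 26.1 and 24.4 FPKM with the siRNA, against 27.5, 22.1 and 30.3 FPKM in the controls (log2 fold change -0.15, SE 0.14, adjusted p = 0.565). Its sign turned after removal of the ribosomal entries (0.05). Tpx2, the activator of Aurora A, averaged 40.0 ± 2.58 FPKM with the siRNA and 50.0 ± 6.01 FPKM in the controls (SD, n = 3 each) and lay entirely lower.

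Among the APC/C partners, 2 of 4 genes lay entirely lower, against 22.1% of all entries, and 0 after removal of the ribosomal entries, against 4.29%. Cdc20, the activator that starts anaphase, had 41.7, 45.2 and 43.6 FPKM in siRNA libraries 1 to 3, against 62.0, 50.9 and 64.1 FPKM in control libraries 1 to 3. The groups did not overlap (log2 fold change -0.43, SE 0.11, adjusted p = 0.172). Ube2c, the ubiquitin-conjugating enzyme that works with the APC/C, had 54.0, 55.0 and 68.2 FPKM with the siRNA, against 69.5, 65.2 and 77.3 FPKM in the controls. Here siRNA library 3 lay above control library 2 (log2 fold change -0.26, SE 0.12, adjusted p = 0.315). Ube2s, which extends the ubiquitin chains, had 49.9, 54.9 and 52.5 FPKM with the siRNA, against 76.1, 48.6 and 67.4 FPKM in the controls, with control library 2 below all siRNA libraries. It overlaps Rpl28, a ribosomal protein gene at 160.3 FPKM on the opposite strand. Cdca3, linked to an SCF ubiquitin ligase, had a ratio of 0.738 and lay entirely lower.

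The cytokinesis genes had the group median nearest to 0, -0.29 over 4 genes. Of the 4, 3 lay entirely lower, against 22.1% of all entries, and 1 after removal of the ribosomal entries, against 4.29%. Anln, the anillin scaffold of the contractile ring, had 6.84, 7.25 and 7.16 FPKM in siRNA libraries 1 to 3, against 10.4, 9.02 and 11.3 FPKM in control libraries 1 to 3 (log2 fold change -0.47, SE 0.11, adjusted p = 0.137). Ect2, the exchange factor that activates RhoA at the cleavage site, had 14.0, 14.1 and 12.1 FPKM with the siRNA, against 17.2, 14.8 and 16.6 FPKM in the controls (log2 fold change -0.26, SE 0.10, adjusted p = 0.263). Neither gene's groups overlapped. Prc1, which bundles the central spindle and had the largest SE of the 60, overlapped, with 43.4, 46.4 and 28.3 FPKM with the siRNA, against 56.8, 36.4 and 50.6 FPKM in the controls (log2 fold change -0.28, SE 0.21, adjusted p = 0.492). Racgap1, the centralspindlin partner of Kif23, averaged 30.1 ± 3.24 FPKM with the siRNA and 37.2 ± 1.78 FPKM in the controls (SD, n = 3 each) and lay entirely lower. The difference between Racgap1 and Kif23 was not tested.

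Chromosome structure genes had a median log2 fold change of -0.34 over 8 genes. Of the 8, 7 lay entirely lower, against 22.1% of all entries, and 0 after removal of the ribosomal entries, against 4.29%. Hmgb2, a DNA-bending chromatin protein, had the highest mean and the lowest fold change of the group, with 51.2, 55.3 and 45.0 FPKM in siRNA libraries 1 to 3, against 77.3, 58.7 and 73.5 FPKM in control libraries 1 to 3 (log2 fold change -0.46, SE 0.13, adjusted p = 0.191). Mki67, which codes for the proliferation marker Ki-67, averaged 45.2 ± 2.21 FPKM with the siRNA and 59.2 ± 5.56 FPKM in the controls. Top2a, the topoisomerase that untangles sister chromatids, averaged 50.0 ± 4.93 FPKM with the siRNA and 66.1 ± 4.64 FPKM in the controls (SD, n = 3 each). The condensin core subunits Smc4 and Smc2 had ratios of 0.760 and 0.833, and the condensin I subunits Ncapd2 and Ncaph had 0.827 and 0.802. Cdca2, which brings a protein phosphatase to chromatin, overlapped, with 8.96, 9.83 and 8.39 FPKM with the siRNA, against 10.5, 10.8 and 9.58 FPKM in the controls (log2 fold change -0.17, SE 0.10, adjusted p = 0.389). Its sign turned after removal of the ribosomal entries (0.02).

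Foxm1, the transcription factor that with MuvB and MYBL2 activates many of these genes, had 26.4, 31.5 and 27.8 FPKM in siRNA libraries 1 to 3, against 34.6, 35.8 and 38.3 FPKM in control libraries 1 to 3. The groups did not overlap (log2 fold change -0.33, SE 0.10, adjusted p = 0.195). In GENCODE M21 it shares exonic sequence on the same strand with weaker entries, Gm44596 and Tex52. Whether counting used the strand is not stated. Of the 60 genes 11 overlap, in exons, a gene of at least 1 FPKM on the opposite strand, among them Ccna2, Cdc25b, Nusap1 and Cdc20, and for these the reads of the pair may not have been told apart.

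Other mitotic genes, 131 in 6 lists, all passed the minimum level. Of these 0 passed limma's test in either direction, and 41 lay lower (all entries, 15.5%) and 0 higher at an unadjusted p below 0.05. Limma with library weights called 8 of them, and 320 of all 13702 entries. The median log2 fold change of the 131 was -0.21, beside -0.36 for the 60 genes and -0.12 for all entries. Of the 131, 56 lay entirely lower, against 22.1% of all entries. After removal of the ribosomal entries 8 did, against 4.29%, and the median was -0.03, beside 0.06 for all entries. At an unadjusted p below 0.05, 8 of the 131 lay lower on that scale, against 2.87% of all entries. The list medians ran from -0.13 for 13 MuvB, DREAM and MYB regulators to -0.24 for 35 centrosome and spindle pole genes. The APC/C subunits and inhibitors had a median of -0.17 over 16 genes. Their lowest member Anapc13, a small subunit, had 33.3, 30.9 and 19.0 FPKM with the siRNA, against 49.1, 44.0 and 40.6 FPKM in the controls (adjusted p = 0.185). Their highest, the catalytic core subunit Anapc2, had 28.6, 32.3 and 28.0 FPKM with the siRNA, against 30.4, 28.3 and 28.0 FPKM in the controls.

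The 13 mitotic entry regulators had a median log2 fold change of -0.22. Pbk, a mitotic kinase, was their lowest (23.9 ± 2.10 FPKM with the siRNA and 34.1 ± 4.17 FPKM in the controls), and Bora, a cofactor of Aurora A, their highest (6.63 ± 0.304 FPKM with the siRNA and 6.17 ± 1.01 FPKM in the controls; SD, n = 3 each). The 35 other kinetochore genes had a median of -0.21, with log2 fold changes from -0.55 for Cenpp to 0.03 for Cenpt, both subunits of the inner kinetochore. In 19 cohesin and condensin genes the median was -0.19. Among the centrosome genes Knstrn, a kinetochore and spindle adaptor, had the lowest log2 fold change at -0.51 and Numa1, a spindle pole organiser, the highest at 0.06. Of the regulators, Tfdp1 and Tfdp2, the dimerisation partners of E2F factors, stood at opposite ends, at -0.44 and 0.36.

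The S phase genes, which act before mitosis, had a median log2 fold change of -0.26 over 36 genes, all 36 below 0, against 77.1% of all entries, and 19 entirely lower, against 22.1%. Limma called 0 of them, and 17 lay lower and 0 higher at an unadjusted p below 0.05, against 15.5% of all entries lower. They ran from Chaf1b, a histone chaperone subunit, at -0.51 to Ccne1, cyclin E1, at -0.10. With median-of-ratios scaling 11 of the 36 lay entirely lower, against 10.1% of all entries. After removal of the ribosomal entries 1 did, against 4.29%, and 29 were below 0, against 35.8%, with a median of -0.08. At an unadjusted p below 0.05, 1 of the 36 lay lower on that scale, against 2.87% of all entries. The summed FPKM of the 60 mitotic genes was 2.25, 2.26 and 2.28 times that of the S phase genes in siRNA libraries 1 to 3, against 2.19, 2.34 and 2.36 times in control libraries 1 to 3. The groups overlapped on this ratio, at 2.26 ± 0.0166 with the siRNA and 2.30 ± 0.0943 in the controls (SD, n = 3 each).

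In the series as a whole, the steps between low FPKM values put the depth of the libraries at 18400000 to 21890000 fragments. The host gene mRNA Hipk2, which does not measure the circle, had 28.3, 28.8 and 23.8 FPKM with the siRNA, against 31.8, 36.9 and 30.9 FPKM in the controls (adjusted p = 0.257). Of 12 neural stem cell markers, Sox2 and Nes among them, 11 passed the minimum level, and their sums were 1798 to 2261 FPKM with the siRNA and 1985 to 2527 FPKM in the controls. Of the 11, Fabp7, Hes1 and Hes5 lay entirely lower (3, against 22.1% of all entries) and 0 entirely higher. After removal of the ribosomal entries Hes5 alone lay entirely lower (all entries, 4.29%), while Sox2, Vim and Notch1 lay entirely higher (all entries, 14.0%). Of 8 neuron markers 4 passed, and the sums, nearly all from Map2, did not overlap as deposited, at 94.0 to 106.4 FPKM with the siRNA and 120.6 to 130.5 FPKM in the controls. Of the 4, 3 lay entirely lower, against 22.1% of all entries, and 1 after removal of the ribosomal entries, against 4.29%. After that removal Map2 overlapped (log2 fold change -0.09). Astrocyte markers (5 of 5 passed) summed to 280.3 to 611.5 FPKM with the siRNA and 298.2 to 509.6 FPKM in the controls, and oligodendrocyte lineage markers (6 of 7) to 64.8 to 113.1 FPKM with the siRNA and 97.5 to 125.8 FPKM in the controls. Microglia, endothelial and fibroblast markers all averaged under 1 FPKM, and Cx3cr1 was listed at 0 in every library. Of 10 liver genes, 10 were called lower, against 0.139% of all entries. They were picked from earlier results of these libraries, so that count is not a test. Their sums were 2.10 to 2.21 FPKM with the siRNA and 39.9 to 64.8 FPKM in the controls. The part of the ribosomal entries, the neuron markers and the liver genes in the mitotic result, beyond the rescaling above, was not tested.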

How the data were processed

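RNA was sequenced in 6 libraries, 3 per group. The deposited table gives FPKM per gene symbol. The submitters' processing notes name HISAT, StringTie, edgeR and the mm9 build without versions or roles, and the annotation and strand setting are not given. The table holds no coordinates, so positions come from RefSeq GRCm38.p6 and GENCODE M21.

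FPKM were used as the authors deposited them. The 13702 entries that averaged 1 FPKM or more were taken to log2(FPKM + 1), a scale that understates the change of weak genes, and compared with limma 3.58.1 in R 4.3.3 (mean-variance trend, two-sided, Benjamini-Hochberg adjustment over all entries, called at an adjusted p below 0.05). The steps were tested on simulated data. Depth was the number of fragments at which the largest share of low FPKM values came close to whole multiples (38.4% to 42.2% of values per library within 0.05 of a multiple). At that depth 1 fragment per kilobase is worth 0.0457 to 0.0543 FPKM, and no count test was run because most values were not whole.

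The genes and lists were chosen with earlier results of these data known. Named were, per role group, the gene with the highest mean, the lowest and the highest log2 fold change, Ccnb1 with its pseudogene, and Foxm1; per other list, the lowest and the highest. All further genes were picked with their values in view. Alternatives were other pseudocounts, filters, scalings, moderation, library weights, a replicate block and each library left out.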

Additional observations from a re-analysis of the deposited data

How the results depend on the processing

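The median of the 60 genes relative to all entries, -0.24, lay between -0.25 and -0.21 under the other pseudocounts, scalings, moderations, library weights and the filter of 5 FPKM, and was -0.34 with no filter, which adds entries near 0. With 1 library left out in turn it was -0.29 to -0.21, with 47 to 56 of the 60 entirely lower (against 24.1% to 42.3% of all entries), 0 of the 60 called and 8 to 33 entries called in all, the 8 without siRNA library 3; without control library 2 or 3 there were 23 and 21. A count of entirely lower genes can only stay or rise when a library is left out. After removal of the ribosomal entries 9 of the 60 lay entirely lower, in place of 46. Library weights (0.507 to 2.5, the highest for siRNA library 1) called 21 of the 60 lower and 8 other mitotic genes. They called 320 of all 13702 entries, 265 lower and 55 higher. The cause was not tested. Of all entries 35 were called as reported, 22 at a mean of at least 5 FPKM, 14 with median-of-ratios scaling and 16 with quantile normalization. The log2 fold change turned positive for Kif23 (0.0322 with median-of-ratios scaling, 0.0219 with quantile normalization, 0.0984 without the ribosomal entries, 0.0447 with weights), Gtse1 (0.0025 with quantile normalization, 0.0497 without the ribosomal entries), Mad2l1 (0.0241) and Cdca2 (0.0199, both without the ribosomal entries). Of 22 genes followed singly, 8 that had not passed did so with weights, and Ccnb1-ps, the 1 called, lost its call in 14 of 19 alternatives.

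Same-numbered libraries were not shown to be paired: their deviations from the group means correlated at 0.046, 0.0152 and 0.133, and not every library correlated best with its own number. With the replicate block 0 of the 60 genes and 46 entries were called. With the block and median-of-ratios scaling together 0 of the 60 genes and 1 entry were called, and Kif23 was at 0.0322.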

Other observations

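Control library 2 stood apart for several genes of the wider mitotic lists, chosen after their values were seen. Stag2, a cohesin subunit, was at 3.76 to 5.75 FPKM in the siRNA libraries, and at 16.7 FPKM in control library 2, against 5.22 and 4.87 FPKM in control libraries 1 and 3. Its paralogue Stag1 was at 6.78 to 8.45 FPKM in the siRNA libraries, and at 4.60 FPKM in control library 2, against 9.78 and 6.38 FPKM in control libraries 1 and 3, the last also below every siRNA library. Numa1 was at 20.6 to 27.3 FPKM in the siRNA libraries, and at 15.0 FPKM in control library 2, against 27.3 and 31.6 FPKM in the other controls. Tfdp2 was low in siRNA library 2 (1.60 FPKM) and in control library 2 (1.04 FPKM), and lay between 3.61 and 5.06 FPKM in the other libraries.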
